A study of Homo sapiens with 11 samples.

Results

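The 8 genes ZNF502, RGCC, DNM3, ACP5, CLIC2, KISS1R, PLEKHS1 and LMO3 were clearly measured in mock-transfected HCC827 cells and fell to a small part of that signal in HCC827 cells labelled TRIM58-WT. They are 8 of 20249 genes named on the array, and they were selected on exactly that difference, so their values in HCC827 are given as a description without a test. TRIM58 is a RING-type E3 ubiquitin ligase, and the study asked what its restored expression does to lung adenocarcinoma cells. The cells were A549 and HCC827, both established lines from human lung adenocarcinoma, and their RNA was hybridized to 11 one-colour Agilent expression arrays. Mock cells carried the empty pMXs-Neo retroviral vector and TRIM58-WT cells the same vector with wild-type TRIM58, and both were kept under G418 selection. The paper describes A549 transfectants as clones and HCC827 transfectants as crude populations. HCC827 had 2 mock and 2 TRIM58-WT arrays. A549 had 3 TRIM58-WT arrays and 4 mock arrays, of which arrays 1-1 and 1-2 carry the same control cell number and were counted as 1 replicate, giving 3. The labels number the cells of each group but do not say whether a number stands for a separate culture or clone. The spread of replicates may therefore be technical or, in A549, may lie between clones.

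The word lost suits only some of the 8 genes. RGCC, DNM3, ACP5 and CLIC2 were still well above background on both HCC827 TRIM58-WT arrays, so 4 of the 8 genes were strongly reduced but still detected. ZNF502, KISS1R and LMO3 were not well above background on either array, and these 3 genes have only a lower bound for their fall. PLEKHS1 was detected by 1 probe on 1 of the 2 arrays. In A549, 5 of the 8 genes (ACP5, CLIC2, KISS1R, PLEKHS1 and LMO3) were not well above background on any array, so A549 could show a fall only for ZNF502, RGCC and DNM3.

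The 8 genes are not known as a single pathway, and they lie on 7 chromosomes. ZNF502 is a zinc finger protein, and LMO3 is a LIM-only protein that joins transcription factors into complexes without binding DNA itself. KISS1R is the G protein-coupled receptor for kisspeptin, the product of KISS1, a gene known as a metastasis suppressor. RGCC binds and modulates the mitotic kinase CDK1, and PLEKHS1 carries a pleckstrin homology domain, a fold that often binds membrane phosphoinositides. DNM3 is a dynamin, a large GTPase of membrane fission and trafficking, CLIC2 belongs to the chloride intracellular channel family, and ACP5 is tartrate-resistant acid phosphatase, best known as an osteoclast and macrophage enzyme.

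The promoters of the 8 genes differed widely in CpG content. RefSeq promoter windows on GRCh38.p14, which run from 250 bases before to 50 bases after an annotated start, held 15 windows for 7 of the 8 genes, with KISS1R not matched. Each CG, the dinucleotide that can be methylated, is printed in capitals in 4 of these windows. RGCC and DNM3 are shown because they were low under TRIM58-WT in both lines, ZNF502 because it was measured in A549 without a difference, and CLIC2 because it was measured in HCC827 only.
RGCC promoter, chr13:41457300-41457599, plus strand: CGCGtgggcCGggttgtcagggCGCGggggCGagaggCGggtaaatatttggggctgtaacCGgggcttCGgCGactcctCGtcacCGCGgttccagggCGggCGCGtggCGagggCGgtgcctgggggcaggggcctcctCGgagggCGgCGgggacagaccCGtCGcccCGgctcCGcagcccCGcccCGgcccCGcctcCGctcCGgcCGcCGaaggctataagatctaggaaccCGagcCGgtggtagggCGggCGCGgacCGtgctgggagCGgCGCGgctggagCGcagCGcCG
DNM3 promoter, chr1:171841248-171841547, plus strand: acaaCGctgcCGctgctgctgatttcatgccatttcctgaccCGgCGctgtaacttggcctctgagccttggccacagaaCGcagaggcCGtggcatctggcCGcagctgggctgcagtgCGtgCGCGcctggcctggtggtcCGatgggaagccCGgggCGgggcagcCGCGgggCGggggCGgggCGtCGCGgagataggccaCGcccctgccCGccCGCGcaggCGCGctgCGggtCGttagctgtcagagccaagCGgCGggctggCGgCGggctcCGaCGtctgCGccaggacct
ZNF502 promoter, chr3:44712410-44712709, plus strand: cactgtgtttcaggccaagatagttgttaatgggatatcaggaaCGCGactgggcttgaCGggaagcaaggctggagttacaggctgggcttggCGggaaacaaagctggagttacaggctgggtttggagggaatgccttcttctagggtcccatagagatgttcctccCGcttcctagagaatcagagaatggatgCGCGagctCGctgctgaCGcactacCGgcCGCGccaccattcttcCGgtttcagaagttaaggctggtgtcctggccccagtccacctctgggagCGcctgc
CLIC2 promoter, chrX:155334565-155334864, minus strand: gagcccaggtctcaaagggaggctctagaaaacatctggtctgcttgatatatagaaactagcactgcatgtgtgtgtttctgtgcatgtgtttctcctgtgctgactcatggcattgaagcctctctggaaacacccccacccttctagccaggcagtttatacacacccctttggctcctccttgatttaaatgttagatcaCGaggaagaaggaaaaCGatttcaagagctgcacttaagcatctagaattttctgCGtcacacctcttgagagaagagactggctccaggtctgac

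The RGCC window held 44 CG dinucleotides, with an observed over expected CpG ratio of 1.02 and a G+C content of 76.7%. The DNM3 window held 35, with a ratio of 0.89. The ZNF502 window held 14 at a ratio of 0.59, and the CLIC2 window held 3 at a ratio of 0.18. Over all 35116 windows the median count was 14 and the median ratio 0.58, and 96.0% held at least 1 CG. So ZNF502 sat at the middle of all promoters, RGCC and DNM3 above it and CLIC2 well below. The 2 PLEKHS1 windows each held 1 CG (ratios 0.063 and 0.12). The 4 ACP5 windows had ratios of 0.28 to 0.68 and the 5 LMO3 windows 0.26 to 0.81. A ratio of 0.6 or more was reached by 4 of the 15 windows and by 48.9% of all windows. These 4 windows belonged to RGCC, DNM3, ACP5 and LMO3, which are 4 of the 7 genes with a window. Most of the 15 windows came from ACP5 and LMO3, and some of these overlap, so the share of windows is not a share of genes. The letters TATAAA, searched on both strands, were in the CLIC2 window, in 1 PLEKHS1 window and in 11.53% of all windows, and GGGCGG, which itself holds a CG, was in the RGCC and DNM3 windows, in 2 ACP5 windows, in 1 LMO3 window and in 45.0% of all windows. No methylation was measured on these arrays, and a match of letters does not show that a site is used.

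All values are log2 of the array's processed signal relative to the 75th percentile of that array, so 0 is the signal below which 75% of the probes lie, and a difference of 1 is a 2-fold difference. A signal counts as well above background when the scanner software marked more than a share of 0.5 of the probe's spots so. The 75th percentile lay at 108 to 125 intensity units on the HCC827 arrays and at 56.6 to 103 on the A549 arrays, with 45.6% to 46.5% of probes well above background in HCC827 and at least 40.1% in A549. Of 5 epithelial marker genes, 5 were well above background on every HCC827 array and A549 mock array and 4 on every A549 TRIM58-WT array, and 0 of 3 endothelial and 0 of 4 fibroblast markers were on any HCC827 array. In A549, 0 of 3 endothelial markers were on any array, and LUM was the only one of the 4 fibroblast markers detected, on 3 of 4 mock arrays. Of the leukocyte markers reported, CD3E was on no array, while PTPRC and CD14 were dim but detected on both HCC827 mock arrays (means of -2.49 and -2.38). The probe for TRIM58 went against the labels. It was well above background only on the A549 array labelled mock replicate 3, at -0.71, and it read -5.64 to -4.63 on all arrays labelled TRIM58-WT and -5.33 to -5.15 on the other mock arrays. Whether this probe can read the vector's transcript was not tested, so mock and TRIM58-WT below mean the arrays carrying those labels.

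Among the transcription regulators, ZNF502 (chr3:44712660-44723831 on GRCh38.p14) read -0.37 and -0.39 on the 2 HCC827 mock arrays and -4.16 and -4.08 on the 2 TRIM58-WT arrays. The replicates of each group lay within 0.084 of each other and the groups were far apart. The means were -0.38 ± 0.015 and -4.12 ± 0.059 (SD, n = 2). ZNF502 was below background on both TRIM58-WT arrays, so by the scanner software's background-subtracted signal its fall was at least 7.95-fold. LMO3 (chr12:16548372-16610174) read -0.63 and -0.65 in mock, against -4.45 and -5.14 in TRIM58-WT, a fall of at least 6.63-fold. Both transcription regulators were thus measured on each mock array and were below the background threshold on each TRIM58-WT array.

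Among the receptor and signalling genes, KISS1R (chr19:917333-921005) read -0.87 and -1.28 on the mock arrays. It read -4.81 and -4.83 in TRIM58-WT, a fall of at least 4.90-fold. RGCC (chr13:41457550-41470871) read 2.27 and 2.30 in mock, against -1.44 and -1.63 in TRIM58-WT, and it remained well above background on all 4 arrays. Its means of 2.29 ± 0.019 and -1.54 ± 0.13 (SD, n = 2) differed by 3.82 on the log2 scale, which is 14.1-fold. Levels of different genes come from different probes and cannot be ranked against each other beyond whether each was detected.

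PLEKHS1 (chr10:113751682-113783429) was covered by 3 probes made for different transcript records. The first, for NM_024889, read 1.07 and 0.86 in mock, against -4.60 and -2.40 in TRIM58-WT, with the second value well above background. The second probe, for NM_182601, read 0.54 and 0.35 in mock, against -4.64 and -3.99 in TRIM58-WT, a fall of at least 14.1-fold. The third, for NM_001193434, stayed at background on all 11 arrays. The TRIM58-WT replicates of PLEKHS1 lay 2.20 apart by its first probe, the widest gap of the 8 genes, yet both stayed far below both mock arrays.

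Among the trafficking, channel and enzyme genes, ACP5 (chr19:11574660-11578975) read 3.40 and 3.15 in HCC827 mock. It read -0.37 and -0.20 in TRIM58-WT, which is 11.7-fold lower and still well above background. CLIC2 (chrX:155276211-155334614) read 2.60 and 2.68 in mock, against -0.75 and -0.46 in TRIM58-WT, a 9.52-fold fall, and its difference of -3.25 was the smallest of the 8 genes. ACP5 and CLIC2 were both well above background on all 4 HCC827 arrays, so neither stopped being detected.

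DNM3 (chr1:171841498-172418466) had 2 probes that differed. The probe for NM_015569 read 0.93 and 0.77 in HCC827 mock, against -2.55 and -2.44 in TRIM58-WT, a 10.2-fold fall with all 4 arrays well above background. The probe for NM_001278252 was not well above background in HCC827 mock, at -4.28 and -4.31, and read -3.03 and -3.25 in TRIM58-WT, where 1 of 2 arrays was. The fall of DNM3 in HCC827 is therefore a statement about the first probe only. In A549 mock, unlike in HCC827, both probes were detected.

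The size of the falls depended on how background was handled. The alternative was normexp with an offset of 50, which adds a constant to every signal, in place of the scanner software's subtraction. With it all 9 probes of the 8 genes fell less, with a difference of -2.61 in place of -3.82 for RGCC and of -2.47 in place of -3.25 for CLIC2. The correction and the offset were not tested apart. ACP5 differed by -2.99, ZNF502 by -1.18, LMO3 by -0.83 and KISS1R by -0.71. The bounds given above for ZNF502, LMO3, KISS1R and PLEKHS1 hold for the scanner software's subtraction only. Each was larger than the fall seen with normexp.

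**Figure D1:**
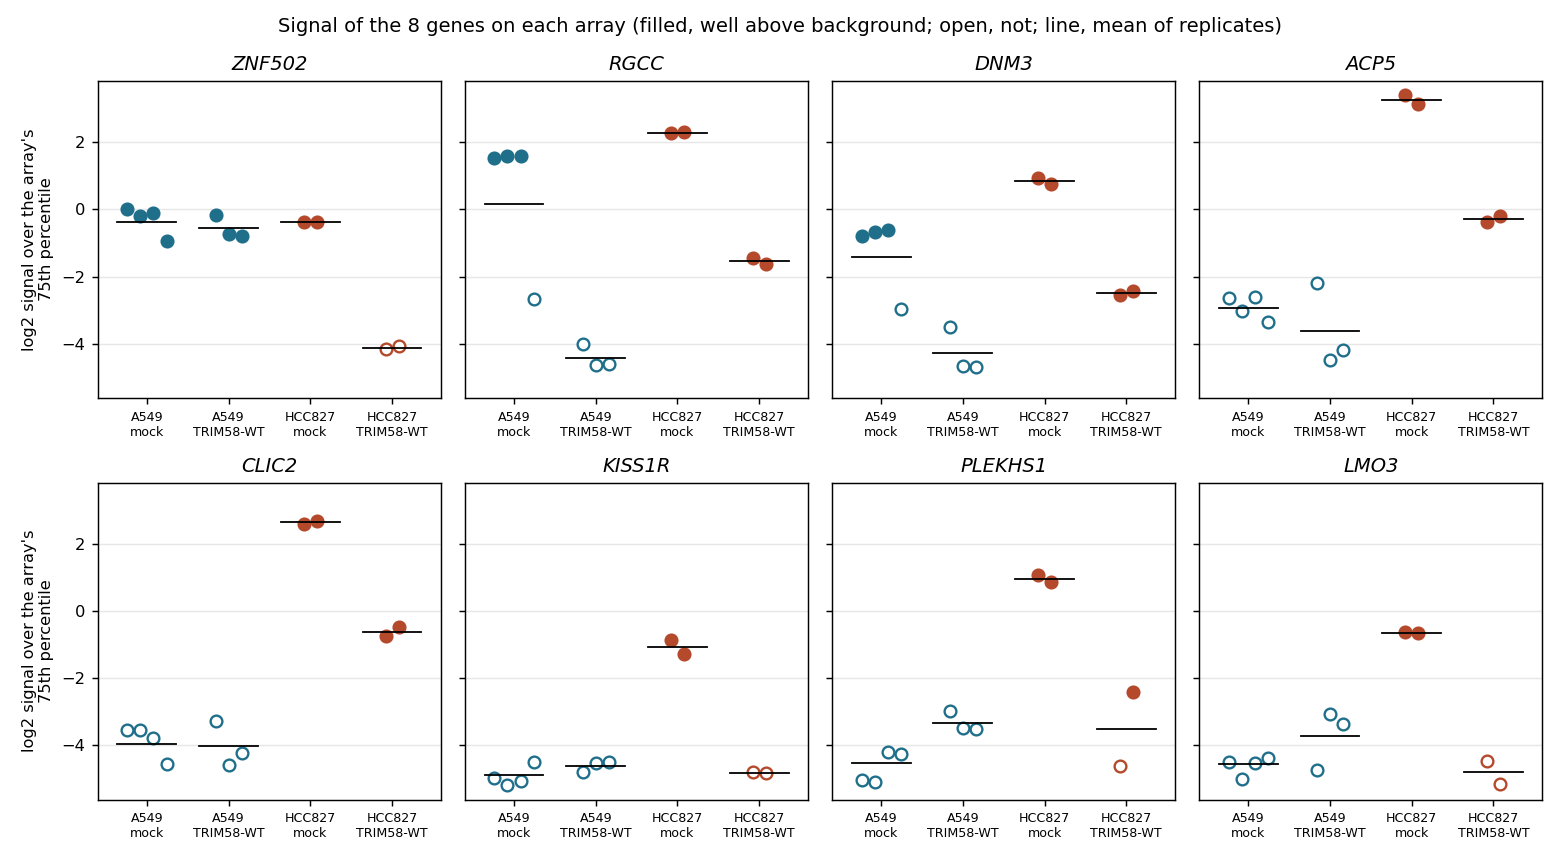
Log2 signal over the array's 75th percentile (vertical axis) on every array of the 4 groups (horizontal axis), 1 panel per gene with the probe brightest in HCC827 mock; filled points were well above background, open points were not, and lines are means over replicates. In HCC827 every gene dropped by 3.25 or more between the 2 groups, while in A549 only ZNF502, RGCC and DNM3 have filled points.

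The 8 genes were a small selection from a longer list of falls. Of 18390 probes well above background on both HCC827 mock arrays, 51 had a mean decrease at least as large as that of CLIC2, and 9 of these belonged to the 8 genes while 42 did not. By size of decrease the 9 ranked from 5 (PLEKHS1) to 51 (CLIC2). The selection had no numeric threshold, and UCHL1 (rank 41), HOXD1 (rank 45) and AQP3 (rank 49), named here after their values were seen, lay inside the same range without being among the 8.

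Taking for each of the 8 genes the probe brightest in HCC827 mock, the TRIM58-WT replicates lay between 0.026 (KISS1R) and 2.20 (PLEKHS1) apart. All 9 probes were at least 2 log2 units below both mock arrays on both TRIM58-WT arrays, and 0 of the 9 had TRIM58-WT replicates more than 3 log2 units apart. Of the 42 other probes, 19 were as low on both arrays and 24 had replicates more than 3 apart. The 8 genes were selected as low on these same arrays, so this contrast is a description only. It does not show that they were better measured than the other probes. Of these 24, 17 were low on replicate 2 only, 6 on replicate 1 only and 1, LDHB, on both. Among the 10 largest decreases outside the 8 genes whose probe has a gene symbol, KNSTRN read 5.20 and -5.19 on the 2 TRIM58-WT arrays, and NETO2 read 5.07 and -5.20, against mock values of 4.89 and 5.05 for KNSTRN and 4.09 and 4.07 for NETO2. NIPA2 had the same form, SELENOT was 1.48 below the mock mean on replicate 1 and 8.13 on replicate 2, NDUFA6 was low on replicate 1 alone (-4.37 against 3.22), and LDHB read -1.67 and -5.13. Only FGL1, KRT4 and HOPX of those 10 were low on both arrays to a similar degree.

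The positions of these probes on the array were read as well. On TRIM58-WT replicate 2, 103 of the 176 spots that read more than 3 log2 units below replicate 1 lay in a single block of the array (rows up to 70, columns 95 to 140), which held 1462 of the 30594 spots measured. Of the 17 probes low on replicate 2 only, 13 had their spot in this block, against 0 of the 6 low on replicate 1 only and 5 of the 19 low on both arrays. The corresponding block held 9 spots as far below the other replicate on TRIM58-WT replicate 1 and 0 on both mock arrays. Spots of ZNF502, RGCC, DNM3, ACP5, KISS1R and LMO3 had 0 such low spots within 10 rows and 5 columns of them on all 4 HCC827 arrays. One CLIC2 spot had 4.35% on mock replicate 2, where CLIC2 was high, and 0.813% on TRIM58-WT replicate 1, where it was low, and 0% on the other arrays. The 2 detected PLEKHS1 probes did lie in this area, with 13.9% and 9.62% of surrounding spots low on replicate 2. On replicate 1, where 1.35% and 0% of the surrounding spots were low, both PLEKHS1 probes were also at background, at -4.60 and -4.64. On TRIM58-WT replicate 1 they lay 5.57 and 5.09 below the mock mean, and on replicate 2 they lay 3.37 and 4.43 below it.

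**Figure D2:**
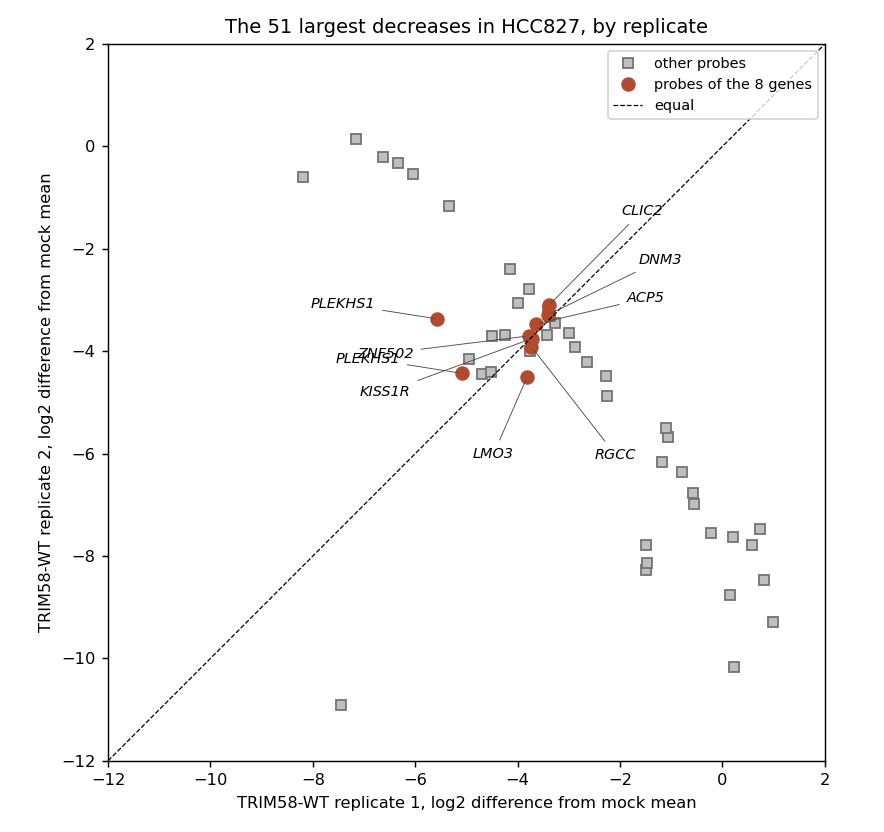
The 51 largest decreases in HCC827, each as the log2 difference from the mock mean on TRIM58-WT replicate 1 (horizontal axis) and replicate 2 (vertical axis); red circles are the 9 probes of the 8 genes, grey squares are 42 other probes, and the dashed line marks equal values. The red points lie within 2.20 log2 units of equality, and 24 grey points lie more than 3 log2 units from equality. The 8 genes were selected on these same arrays.

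A549 gave the only values that the selection had not used. At an adjusted p under 0.05 and a change of at least 2-fold in limma, 6.92% of the 16919 probes tested in A549 were called, and 0 of the 2 probes of the 8 genes that could be tested were among them. ZNF502 read 0.02, -0.20, -0.11 and -0.94 on mock arrays 1-1, 1-2, 2 and 3 and -0.17, -0.73 and -0.79 on the TRIM58-WT arrays. The groups overlapped, the difference was -0.18 with an SE of 0.30, and limma's adjusted p was 0.761 (exact permutation p = 0.8, two-sided). In mock cells ZNF502 had a mean of -0.38 in both lines. By the background-subtracted signal, the same starting level went with a fall of at least 7.95-fold in HCC827 and with 1.13-fold in A549. That the change differs between the lines was not tested, since HCC827 had chosen the gene.

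RGCC separated the A549 groups most widely. It read 1.53, 1.59, 1.59 and -2.67 on mock arrays 1-1, 1-2, 2 and 3 and -4.01, -4.63 and -4.62 on the TRIM58-WT arrays, where it was never well above background. Every TRIM58-WT replicate lay below every mock replicate, by a mean difference of -4.58, which is at least 6.91-fold when the undetected arrays are set at their detection limit. DNM3 by its NM_015569 probe read -0.78, -0.68, -0.61 and -2.95 on the mock arrays and -3.51, -4.68 and -4.69 on the TRIM58-WT arrays, a difference of -2.86, or at least 2.29-fold. By its NM_001278252 probe it read 0.26, 0.24, 0.24 and -1.98 on the mock arrays and -2.45, -4.55 and -3.52 on the TRIM58-WT arrays, a difference of -3.01. Both genes therefore had the same shape, with 3 high mock arrays, 1 low mock array and lower TRIM58-WT arrays. For RGCC and the NM_015569 probe of DNM3, mock replicate 3 was not well above background either. Its order against the TRIM58-WT arrays is there an order of undetected signals and shows no direction.

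None of these 3 probes was called in A549 with all arrays, scaling by the 75th percentile, arrays 1-1 and 1-2 averaged and no term for the slide. For each, the exact two-sided permutation test over 3 against 3 replicates gave p = 0.1, the smallest it can give, and 7.22% of all probes had every TRIM58-WT replicate below every mock replicate. For RGCC and the NM_015569 probe of DNM3 this order includes an undetected mock replicate. RGCC and the NM_015569 probe of DNM3 were not tested by limma, because mock replicate 3 was not well above background and no group was then complete. Tested without the filter, limma's adjusted p was 0.131 for RGCC and 0.125 for that DNM3 probe. The NM_001278252 probe of DNM3 was tested and had an SE of 0.77 and limma's adjusted p of 0.0626 (unadjusted 0.00675), the only one of the 8 genes with an unadjusted p under 0.05. With slide as a block it was called (-2.98, limma's adjusted p = 0.0104), as it was after shifting by the median, after quantile normalization, with arrays 1-1 and 1-2 kept separate and without TRIM58-WT replicate 1 (adjusted p of 0.0031 to 0.0494). In the other fits that kept mock replicate 3, its adjusted p was 0.0613 to 0.233.

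Mock replicate 3 stood apart from the other mock arrays in both genes. It read 4.25 lower than the mean of mock replicates 1 and 2 for RGCC and 2.28 and 2.22 lower for the DNM3 probes, and it is also the array on which TRIM58 was detected. Without it, limma called 6.31% of 18178 probes as lower, and RGCC (-5.99, adjusted p = 0.000308) and DNM3 (-3.62 and -3.75, adjusted p = 0.00615 and 0.0182) were among them. Marker genes moved with these values in A549. LUM, a fibroblast proteoglycan, read 0.070, -0.069 and -4.18 in the mock replicates and -4.80 to -4.55 in TRIM58-WT, while the other 3 fibroblast markers were on no array, and the signals of the 4, each over the array's 75th percentile, summed to 0.181 to 1.17 in mock and 0.154 to 0.201 in TRIM58-WT. The monocyte gene CD14 fell from 0.84 to -2.22 (limma's adjusted p = 0.00153) and the epithelial adhesion gene EPCAM from 2.03 to -2.85 (adjusted p = 0.0117), with mock replicate 3 at 0.93 and 0.59. The summed signal of the 5 epithelial markers was 1351 to 2234 in mock and 1095 to 1720 in TRIM58-WT, and that of the 4 leukocyte markers 1.86 to 2.23 and 0.426 to 0.840. The part of these genes in the differences of RGCC and DNM3 was not tested. Mock replicate 3 shared a low 75th percentile (60.3 intensity units) with TRIM58-WT replicates 2 and 3 (62.5 and 56.6), while TRIM58-WT replicate 1 had 96.7, near the other mock arrays, and still read -4.01 for RGCC. A549 arrays lay on 2 slides, and the difference of RGCC was -5.57 within slide 1 and -4.08 within slide 2. For DNM3 it was -2.81 and -2.87 by the NM_015569 probe and -2.70 and -3.16 by the other. Slide 1 held 1 TRIM58-WT array, and mock replicate 1 had an array on each slide. Slide 2 held mock replicate 3 and TRIM58-WT replicates 2 and 3, which shared the low 75th percentile. Its mock mean for RGCC averages unlike arrays, mock 1-2 at 1.59 and mock replicate 3 at -2.67, so the differences within slides are not free of that grouping.

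The other 5 genes were at background in A549, so a fall could not have been seen. ACP5 read -3.34 to -2.60 in A549 mock and -4.48 to -2.20 in TRIM58-WT, and CLIC2 read -4.55 to -3.54 and -4.58 to -3.27. KISS1R read -5.19 to -4.49 and -4.80 to -4.49, and LMO3 read -5.00 to -4.39 and -4.74 to -3.05. HCC827 mock exceeded A549 mock by at least 59.8-fold for ACP5, at least 46.3-fold for CLIC2, at least 14.5-fold and 10.1-fold for the PLEKHS1 probes, at least 4.76-fold for LMO3 and at least 3.51-fold for KISS1R. The selection required a signal well above background in HCC827 mock, so these line differences are a description only. Of the 18390 probes well above background on both HCC827 mock arrays, 986 were so on no A549 array. Among the 42 other probes with as large a decrease in HCC827 there were 9 of this kind. Of these 42, however, 17 were low on TRIM58-WT replicate 2 only and 6 on replicate 1 only. PLEKHS1 by its NM_024889 probe was higher in all 3 A549 TRIM58-WT replicates (-2.96, -3.50 and -3.51) than in mock (-5.05, -5.10, -4.20 and -4.26), with no array well above background (exact permutation p = 0.1, two-sided).

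**Figure D3:**
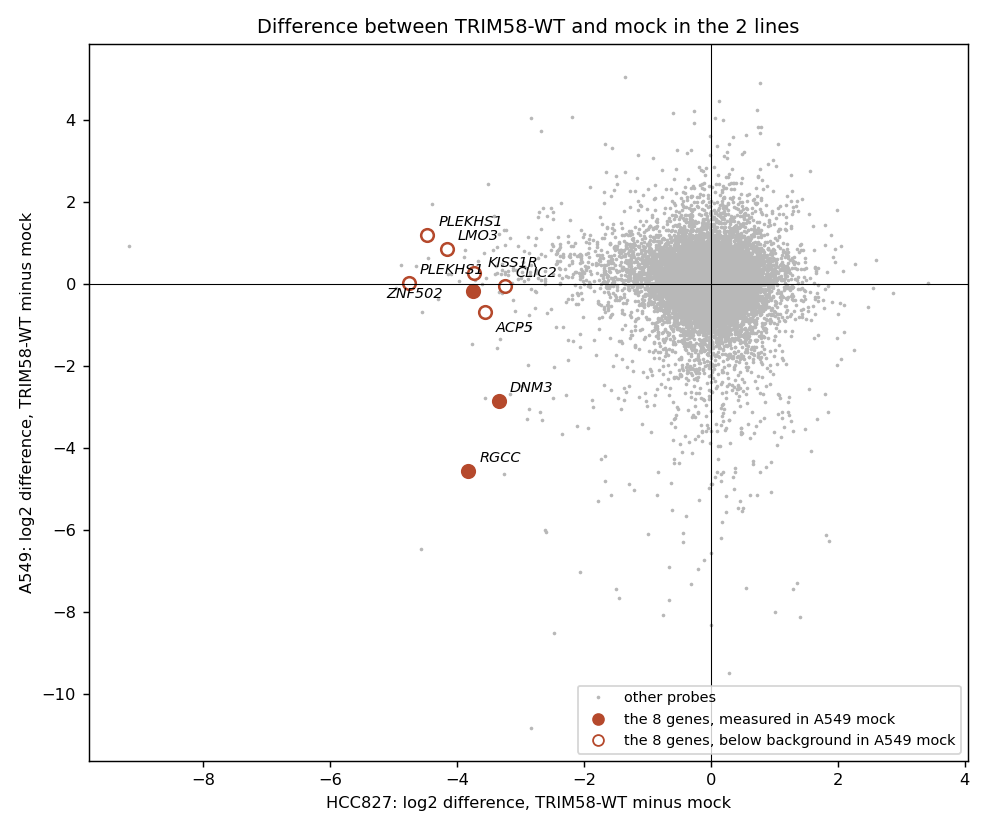
Log2 difference between TRIM58-WT and mock in HCC827 (horizontal axis) and in A549 (vertical axis) for the 18390 probes well above background on both HCC827 mock arrays; red circles are the 9 probes of the 8 genes, filled where at least 1 A549 mock array was well above background. RGCC at -4.58 and DNM3 at -2.86 lie low on both axes, ZNF502 lies at -0.18 in A549, and the open circles were not measured in A549.

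No tested neighbour of the 8 genes was called in HCC827. Of the 48 genes made up of the nearest 3 on each side of the 8 genes, 31 were tested in HCC827 and 0 were called by limma, against 0.594% of all probes called lower, 0.885% called in either direction and 1.17% of named genes with a called probe. In limma 7 of the 31 had an unadjusted p under 0.05, against 24.5% of all named genes tested, and the methods' t-test called 0 of all probes lower. Their median difference was -0.21, against 0.01 over all probes tested, and the range was -1.25 to 0.44. Beside ZNF502, whose gene cluster holds related zinc finger genes, ZNF501 differed by -0.52 (limma's adjusted p = 0.266) and ZNF35 by -0.32 (adjusted p = 0.366). MGST1, a membrane glutathione transferase whose RefSeq span overlaps that of LMO3, stayed among the bright signals, at 7.19 and 7.22 in mock, against 6.33 and 6.26 in TRIM58-WT (adjusted p = 0.071). Near KISS1R, CFD, which encodes complement factor D, read 3.05 and 2.95 in mock, against 1.87 and 2.00 in TRIM58-WT (-1.06, adjusted p = 0.066), and it was called when arrays were shifted by the median instead. VAMP4, beside DNM3, read -1.49 and -1.23 in mock, against -3.64 and -1.57 in TRIM58-WT (-1.25, adjusted p = 0.386). Without TRIM58-WT replicate 2 it was called on the single remaining array, whose spread was taken to be that of the mock arrays. DNM3OS, transcribed from the opposite strand within DNM3, was undetected on the HCC827 arrays.

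In A549, 1 of 31 tested neighbours was called, against 8.54% of all named genes tested, and 5 had an unadjusted p under 0.05, against 29.6% of named genes. CNN1, which encodes the smooth muscle protein calponin and lies next but one to ACP5, was at least 3.35-fold higher (3.39 on the log2 scale as fitted, adjusted p = 0.029), going from -5.34, -5.12 and -3.13 in the mock replicates to -1.91, -0.84 and -0.69 in TRIM58-WT. CNN1 was undetected on every A549 mock array and every HCC827 array, and leaving out TRIM58-WT replicate 2 or 3 or mock replicate 1 or 2 ended the call. The median over the neighbours in A549 was -0.03, against 0.06 over all probes.

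**Figure D4:**
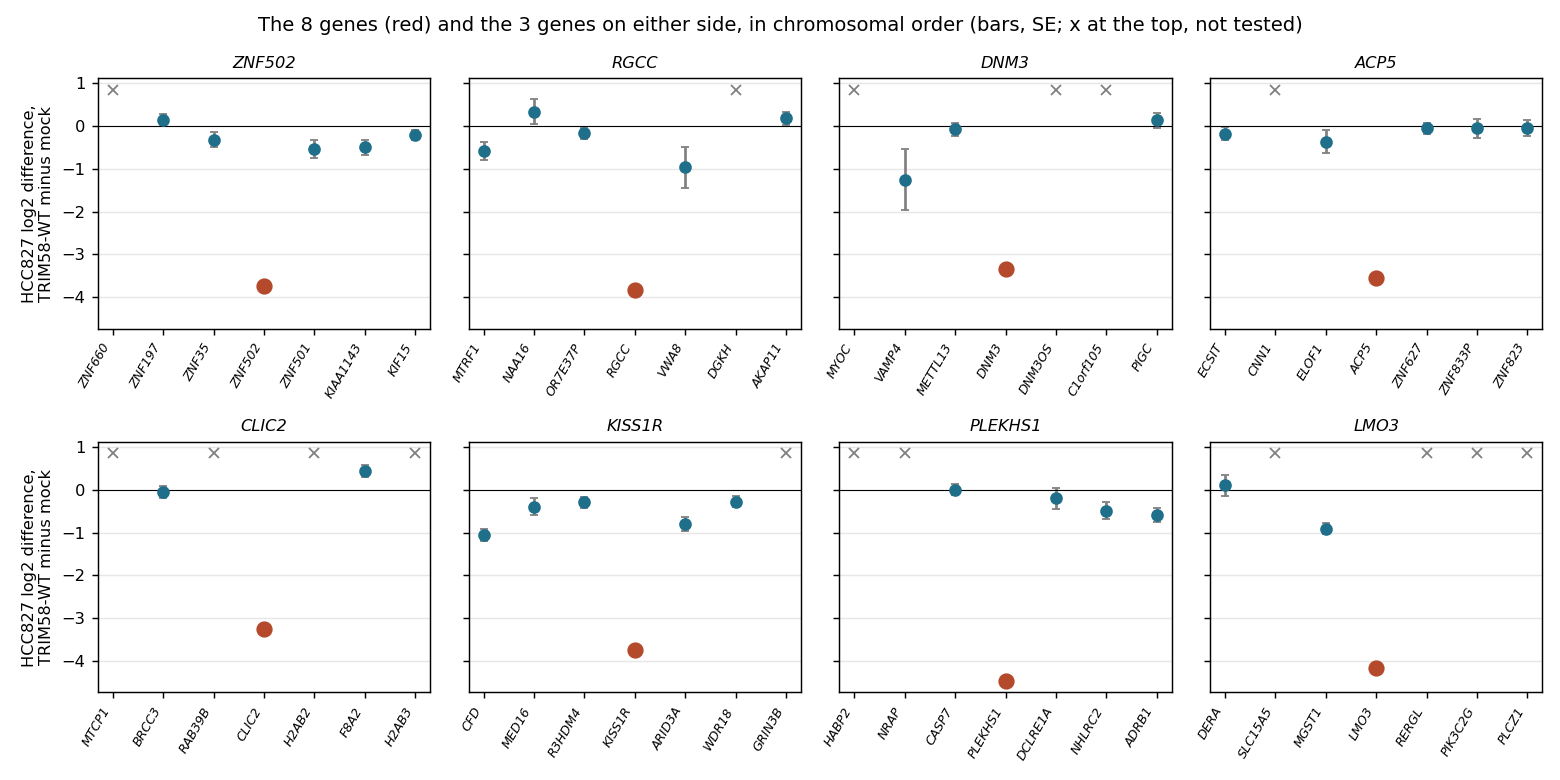
HCC827 log2 difference between TRIM58-WT and mock (vertical axis) of the 8 genes (red) and of the nearest 3 genes on each side in chromosomal order (blue, with SE from limma; crosses at the top mark genes not tested). The red points lie between -4.47 and -3.25, and no tested neighbour lies below -1.25.

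Relatives and partners of the 8 genes, 75 genes in 8 lists of which 71 have a probe here, were mostly not called. In HCC827, 62 were tested and 1 was called, against 1.17% of all named genes tested, and 8 were called when arrays were shifted by the median instead. The 1 was ACP3, prostatic acid phosphatase, which read -2.27 and -2.54 in mock, against -5.14 and -4.90 in TRIM58-WT, below background there (-2.62, limma's adjusted p = 0.030), and like ACP5 it was not detected in A549. The bound on its fall was 1.95-fold by this probe. Another ACP3 probe, well above background on 1 HCC827 mock array, had means of -3.20 in mock and -3.75 in TRIM58-WT, with a bound of 1.13-fold. ACP3 was not called with normexp, without the filter, by the methods' t-test, with the replicate number as a block, or without either mock replicate or TRIM58-WT replicate 1. The other 6 acid phosphatases tested were not called, and ACP1 differed by 0.11 by its brightest probe (adjusted p = 0.680) and by -0.58 by another (adjusted p = 0.235). Of all 62 genes, 17 had an unadjusted p under 0.05, against 24.5% of all named genes tested, and the median difference was -0.04, against 0.01 for all probes.

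Within the dynamin superfamily, 11 genes were tested in HCC827 and 0 were called. DNM1 and DNM2, the other 2 classical dynamins, differed by -0.21 (adjusted p = 0.501) and 0.17 (adjusted p = 0.488), and the interferon-induced members MX1 and MX2 by 1.23 and 1.80 (adjusted p = 0.111 and 0.109). For CLIC2, 4 related channels were tested and 0 called, with CLIC1 at 0.20 and CLIC4 at -0.38. For LMO3, the related LMO4 differed by 0.40 and the cofactor LDB1 by -0.23, and 0 of the 5 tested were called. For RGCC, its partner CDK1 differed by -0.28 and CCNB1 by -0.19, with 0 of 7 called. The kisspeptin ligand KISS1 stayed at background in both lines. Downstream of the receptor, the G protein subunits GNAQ and GNA11 differed by 0.07 and 0.05, and the arrestins ARRB1 and ARRB2 by -1.28 and -0.88 (adjusted p = 0.144 and 0.077), with 0 of 9 genes called. Of 15 pleckstrin homology genes tested, 0 were called, with PLEKHB2 at 0.19 and PLEKHM1 at 0.01 by their brightest probes. The 15 ranged from -2.01 (PLEKHO2) to 1.34 (PLEKHA2). PLEKHO2 read -1.27 and -1.48 in mock, against -1.66 and -5.12 in TRIM58-WT. Of 4 genes tested in the ZNF502 cluster, 0 were called.

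In A549, 53 of these relatives were tested, 4 were called higher and 1 lower. LMO1, a LIM-only gene related to LMO3, rose by 2.33 (limma's adjusted p = 0.002), from 0.18, 0.21 and 0.26 in the mock replicates to 2.79, 2.32 and 2.52 in TRIM58-WT, and it was not well above background in HCC827. The pleckstrin homology genes PLEKHA2, PLEKHO1 and PLEKHO2 rose by 1.88, 1.80 and 1.13 (adjusted p = 0.017, 0.032 and 0.013). ARRB1, an arrestin that directs G protein-coupled receptors into endocytosis, was at least 2.26-fold lower (-1.32 as fitted, adjusted p = 0.047), going from -1.12, -1.30 and -1.49 to -3.27, -2.30 and -2.29. LMO1 kept its call on leaving out each replicate in turn, while ARRB1 lost it each time and the 3 pleckstrin homology genes lost it without TRIM58-WT replicate 2 or 3 or mock replicate 1 or 2. The share called, 5 of 53, stands beside 8.54% of all named genes tested. In limma 23 of the 53 had an unadjusted p under 0.05, a larger share than the 29.6% of all named genes tested. Whether these shares differ beyond the spread was not tested.

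Over the 10 replicates of both lines, the 8 genes fell into patterns that follow where they were detected. RGCC and DNM3 had a Pearson r of 0.98, ACP5 and CLIC2 of 0.99, KISS1R and LMO3 of 0.95, and KISS1R and PLEKHS1 of 0.94. ZNF502 went with none of the others, at -0.21 to 0.36. These 10 points share the line difference and the selected difference, so they are a description only. Among 20616 probes, the pattern most like both RGCC and DNM3 was that of AHR, the aryl hydrocarbon receptor, at 0.99 with a different probe for each. By the probe nearest to RGCC, AHR read 2.78, 2.73 and 1.61 in A549 mock and 1.09, 0.75 and 0.81 in A549 TRIM58-WT, and 3.33 and 3.28 in HCC827 mock against 2.19 and 2.04 in TRIM58-WT. HLA-DMB, an MHC class II accessory chain, came next for RGCC (0.98) and KITLG, the ligand of the receptor KIT, for DNM3 (0.98).

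ACP5 was most like KRT4, a keratin of squamous epithelium, and COQ8A (both 0.99), and CLIC2 most like MBIP and HMGN5 (both 0.99). KRT4 read 4.28 and 4.14 in HCC827 mock and -0.74 and 0.06 in TRIM58-WT. KISS1R and LMO3 shared the same nearest genes, the receptor tyrosine kinase gene ERBB4 (0.99 and 0.96) and AMOT, which encodes the junction protein angiomotin (0.99 and 0.96). ERBB4 read -2.24 and -2.63 in HCC827 mock and -5.03 and -5.53 in TRIM58-WT, and AMOT read -1.41 and -1.36 against -4.80 and -5.06, and neither was detected in A549. PLEKHS1 was most like ZSCAN21 and ADGRF1 (both 0.97), and ZNF502 most like EXOC6 (0.98) and LIMCH1 (0.95), which read 0.81 and 0.48 in HCC827 mock and -1.33 and -1.20 in TRIM58-WT.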

How the data were processed

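The 8 genes, the gene lists and the tests were chosen with earlier results of these data known. The authors hybridized Cy3-labelled RNA to 1-colour Agilent arrays and deposited, per the file headers, background-subtracted and spatially detrended spot intensity values from Feature Extraction 11.5.1.1, whereas the submitters' processing notes name version 10.7. The authors also deposited a log2 table, of which 95.5% of values lay within 0.01 of the values used here minus a probe baseline; it served as an alternative.

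Outlier and control spots were left out, spots of a probe were averaged, and log2 signals had each array's 75th percentile subtracted (42405 probes, 28 values missing). Symbols came from RefSeq accessions (28302 probes carry one, 27241 were named); coordinates are those of the RefSeq table on GRCh38.p14, not of the array's design. Within each line, limma 3.58.1 (lmFit, eBayes) in R 4.3.3 tested a probe if it was well above background throughout 1 group or both, with Benjamini-Hochberg adjustment over all probes tested. Called means an adjusted p under 0.05 and a change of at least 2-fold. A bound ("at least") sets the bright group's mean against the lowest signal well above background on each dim array, or the probe's own signal where higher. It holds for the scanner software's background-subtracted signal only. The number of arrays limits the precision.

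Alternatives were shifting by the median, quantile normalization, normexp, the deposited log2 values, no filter, replicate block, slide block, separate mock arrays, the methods' t-test and leaving out each replicate. Named outside the 8 genes were the 10 largest HCC827 decreases, the 2 most similar genes per gene, called neighbours and relatives, and the brightest uncalled ones. Positions of spots were examined after the values were seen. The fit was tested on simulated data. The values of some marker and comparison genes are not reported here.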

Additional observations from a re-analysis of the deposited data

Results flagged for a closer look

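For probes of 2 of the 8 genes, the signals of every TRIM58-WT replicate lay on opposite sides of mock in the 2 lines, in each case with 1 line near or below background, so that no direction is shown there, and the difference between the lines was not tested. The NM_001278252 probe of DNM3 differed by -3.01 in A549 and by 1.15 in HCC827, where it was not well above background in mock and was so on 1 of 2 TRIM58-WT arrays. The NM_024889 probe of PLEKHS1 differed by 1.19 in A549, where no array was well above background, and by -4.47 in HCC827.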

How the results depend on the processing

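The decrease of the 9 probes of the 8 genes in HCC827 kept its sign under every alternative run for it. Its size depended on the background correction: with normexp and an offset of 50, which adds a constant to every signal, it was -1.18 for ZNF502, -0.71 for KISS1R, -0.83 for LMO3, -1.93 and -1.58 for PLEKHS1 and -1.67 for DNM3, and -2.61 for RGCC, -2.99 for ACP5 and -2.47 for CLIC2. In A549, DNM3 was called after shifting by the median (which moved all probes by -0.37), after quantile normalization, with mock arrays 1-1 and 1-2 separate and with slide as a block, so that 1 of the 8 genes was called in each, and leaving out replicates gave 0 to 2, the 2 being RGCC and DNM3 without mock replicate 3. ZNF502 was called in none. With replicate numbers as a block (same-number deviations correlated at 0.50, -0.42 and 0.50 in A549 and 0.077 in HCC827, so the numbers do not pair the samples), 1122 probes were called in A549 and 0 called lower in HCC827, where 0 relatives then remained called. In A549, mock replicate 3 deviated with TRIM58-WT replicates 2 and 3 (r of 0.57 and 0.50) and against TRIM58-WT replicate 1 (-0.59). Mock replicates 1 and 2 deviated with TRIM58-WT replicate 1 (0.50 and 0.40). The part of this grouping in the differences of RGCC and DNM3 was not tested.

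Against 1171 probes called in A549, normexp gave 507, no filter 609, the methods' t-test after adjustment 24 and slide as a block 1801, and leaving out replicates 297 to 2192. Against 116 called lower in HCC827, shifting by the median gave 350, normexp 71, no filter 0 and the methods' t-test 0, and leaving out replicates 0 to 393, with 0 without either mock replicate; each such HCC827 fit has 1 array in a group, assumed to vary like the other group. Neighbours called in HCC827 numbered 1 (CFD) after shifting by the median and 0 to 1 on leaving out replicates; in A549 CNN1 was not called with normexp, no filter or the methods' t-test (0 each), nor without TRIM58-WT replicate 2 or 3 or mock replicate 1 or 2 (range 0 to 1). Relatives called in HCC827 numbered 8 after shifting by the median, 0 with no filter and 0 with the methods' t-test, and 0 to 3 on leaving out replicates. ACP3 was not called with normexp or without TRIM58-WT replicate 1 or either mock replicate. Relatives called in A549 numbered 2 after shifting by the median, 3 with normexp, 1 with no filter, 0 with the methods' t-test and 8 with separate mock arrays, and 1 to 9 on leaving out replicates. LMO1 was called in all of these except the methods' t-test. Signals below background set only bounds, and the causes of these shifts were otherwise not tested.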
